A study of Drosophila melanogaster with 12 samples.

Results

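Antimicrobial peptide genes were followed in the heads of adult Drosophila melanogaster on short-oligonucleotide arrays, which read each gene through a set of matched probes. The 10 genes of interest were Drs, DptA, DptB, AttA, AttC, AttD, Mtk, Def, Dro and CecA1. The platform annotation gave a probe set a single symbol from that list for 5 of them (Drs, DptB, AttD, Mtk and Def). Probe sets for DptA and Dro carried no symbol there and were named because their identifier stands among the synonyms of those genes in the RefSeq gene table. The same route was checked on 111 probe sets that did carry a platform symbol, and it led to the same gene for 111 of them. AttA, AttC and CecA1 are not analysed here. The 7 probe sets described are among 13966 in the whole table, controls left out, and 6 of the 7 were bright enough to be tested, as were 8380 probe sets in all.

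The arrays compare BG02514 and BG02257, lines of a collection in which each line carries a P{GT1} gene-trap transposon, with the wild-type strain Canton S B, in both sexes. Where the transposon sits in either line was not stated in these sources. Each of the 6 groups (BG02514 females and males, BG02257 females and males, Canton S B females and males) has 2 arrays, and each array holds RNA from a pool of 100 heads. All flies were 5 to 7 days past eclosion and were kept together at 25 °C, 70% humidity and 12 h of light, and no infection or other immune challenge is recorded in the labels. The label of each BG02257 male array reads replicate 1, so they appear below as 1a and 1b. The labels do not tell whether these are separate pools or repeat arrays of 1 pool, so the BG02257 male group may hold 1 sample. They were counted as 2, and the fit with their mean as 1 sample is an alternative. The p-values measure only the spread between arrays of a group, which may be technical.

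Antimicrobial peptides are small, mostly secreted proteins that damage the envelopes or block the growth of bacteria and fungi. In flies, NF-kappaB-type transcription factors switch their genes on from a low resting level after infection, through the Toll pathway, which senses fungi and many Gram-positive bacteria, and the Imd pathway, which senses the peptidoglycan typical of Gram-negative bacteria. The fat body, which also lies in the head around the brain, makes most of the circulating peptide, and epithelia and blood cells make some of it locally. Drs encodes drosomycin, an antifungal peptide and the usual readout of Toll. Mtk encodes metchnikowin, a proline-rich peptide active on fungi and Gram-positive bacteria. DptA and DptB encode the glycine-rich diptericins, which act on Gram-negative bacteria and are the usual readout of Imd. Dro encodes drosocin, a proline-rich peptide active on Gram-negative bacteria, AttD belongs to the attacins, a glycine-rich family active on the same bacteria, and Def encodes the insect defensin, active on Gram-positive bacteria.

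In the gene order of the RefSeq assembly, Drs (probe set 143605_at) lies on arm 3L, with kst and then the drosomycin-like gene Drsl6 on one side and Ythdc1 on the other. DptA (143443_at) and DptB (147473_at) are direct neighbours on arm 2R. Dro (143609_at) also lies on arm 2R, directly before AttA and AttB, as do Mtk (143770_at) and Def (143607_at) elsewhere on the arm. AttD (150090_at) lies on arm 3R. Coordinates are left out because the array table states no build.

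Values are Signal, the authors' background-corrected and scaled intensity per probe set, which has no absolute unit. Differences between arrays are read within a probe set. The filter and the sums over marker genes set probe sets side by side, and a sum is weighted towards its brightest probe sets. The median Signal per array ran between 183 and 206. Of 7 neuronal marker genes 6 were named and all 6 passed the filter. Of 11 eye marker genes 4 were named, of which trp, Arr1 and Arr2 passed and cn, with a mean Signal of 23.8, did not. Of 12 testis and accessory gland genes 10 were named and 3 passed (SP, Mst84Da and Mst87F, with mean Signals of 162, 224 and 261), while the accessory gland genes Acp26Aa and Acp53Ea averaged 8.45 and 2.88. BG02257 male 1a stood apart in the neuronal genes and Yp1. Its summed neuronal marker Signal was 2740, against 4600 to 6100 on the other arrays. Yp1, a yolk protein gene that marks female fat body, read 6747 there, against 172 to 496 on the other male arrays. For the peptide genes, results that include the BG02257 males are therefore given with and without that array where they carry a finding. Single genes of the other lists are given only from the fit of all 12 arrays. Other arrays were extreme on other marker lists. BG02257 male 1b had the lowest muscle sum (23200), and Canton S B female 2 the lowest gut sum (1620) and the highest hemocyte sum (16500). Leaving out 1 array at a time changed the call of a peptide gene in 3 cases, which are named beside Drs, Dro and Def.

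Drs was lower in female than in male heads, and of the 6 tested genes it alone had a sex difference that passed the test. In females Drs had a Signal of 3861 and 3239 in BG02514, 5198 and 2802 in BG02257, and 1650.5 and 1813 in Canton S B. In males it had 12469.7 and 5732 in BG02514, 7450.2 and 9078 in BG02257, and 2890.4 and 4040.0 in Canton S B. Both male arrays were above both female arrays within each of the 3 lines, but across lines the sexes overlapped, since the Canton S B males sat among the females of the other lines. Averaged over the lines, the female-minus-male difference in log2 Signal was -1.12 ± 0.21 (SE, 6 arrays a sex), with an adjusted p of 0.015 (limma, Benjamini-Hochberg over all tested probe sets), so that males had 2.17 times the female Signal. In a bulk sample of whole heads, fewer cells that make the peptide and less RNA per cell cannot be told apart.

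The size of the Drs difference was alike in each line. It was -1.26 ± 0.36 in BG02514, -1.11 ± 0.36 in BG02257 and -0.98 ± 0.36 in Canton S B, with unadjusted p of 0.00468, 0.00987 and 0.0186 and adjusted p of 0.319, 0.443 and 0.472 (limma, 2 arrays a sex). With 2 arrays a sex, none of these within-line differences passed the test. Without BG02257 male 1a the averaged difference was -1.16, with an adjusted p of 0.0263 (limma), and with both BG02257 male arrays as 1 sample it was -1.12, with an adjusted p of 0.0348. The call was lost without BG02514 female 2, where the difference was -1.07 with an adjusted p of 0.0592, and over all 12 fits that leave out 1 array the difference ran from -1.30 to -0.93. The call also depended on how the spread was estimated, with an adjusted p of 0.0587 without a variance trend and 0.24 when the study's own two-way model was fitted on linear Signal, probe set by probe set.

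Among all tested probe sets, 238 passed the test of sex (2.84%), against 1 of 6 antimicrobial peptide genes. Complete separation of the sexes with males higher in each line was found for 213 probe sets (2.54%), and again for 1 of these 6 genes, Drs. Of 14 listed fat body genes 13 were named and all 13 tested, and their summed Signal, which includes the female-specific yolk protein genes, was 240073 to 287131 in females and 34989 to 57358 in males. Without the yolk protein genes and other sex-biased genes, for the 6 genes apolpp, Lsp2, Fbp1, Lpin, FASN1 and bmm (a subset taken after the values were seen), the sum was 20000 to 29200 in females and 23400 to 43100 in males. For 10 named hemocyte genes of 11 listed, all tested, it was 6987 to 16483 in females and 5906 to 9408 in males. The part of these cell types in the Drs difference was not tested.

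**Figure D1:**
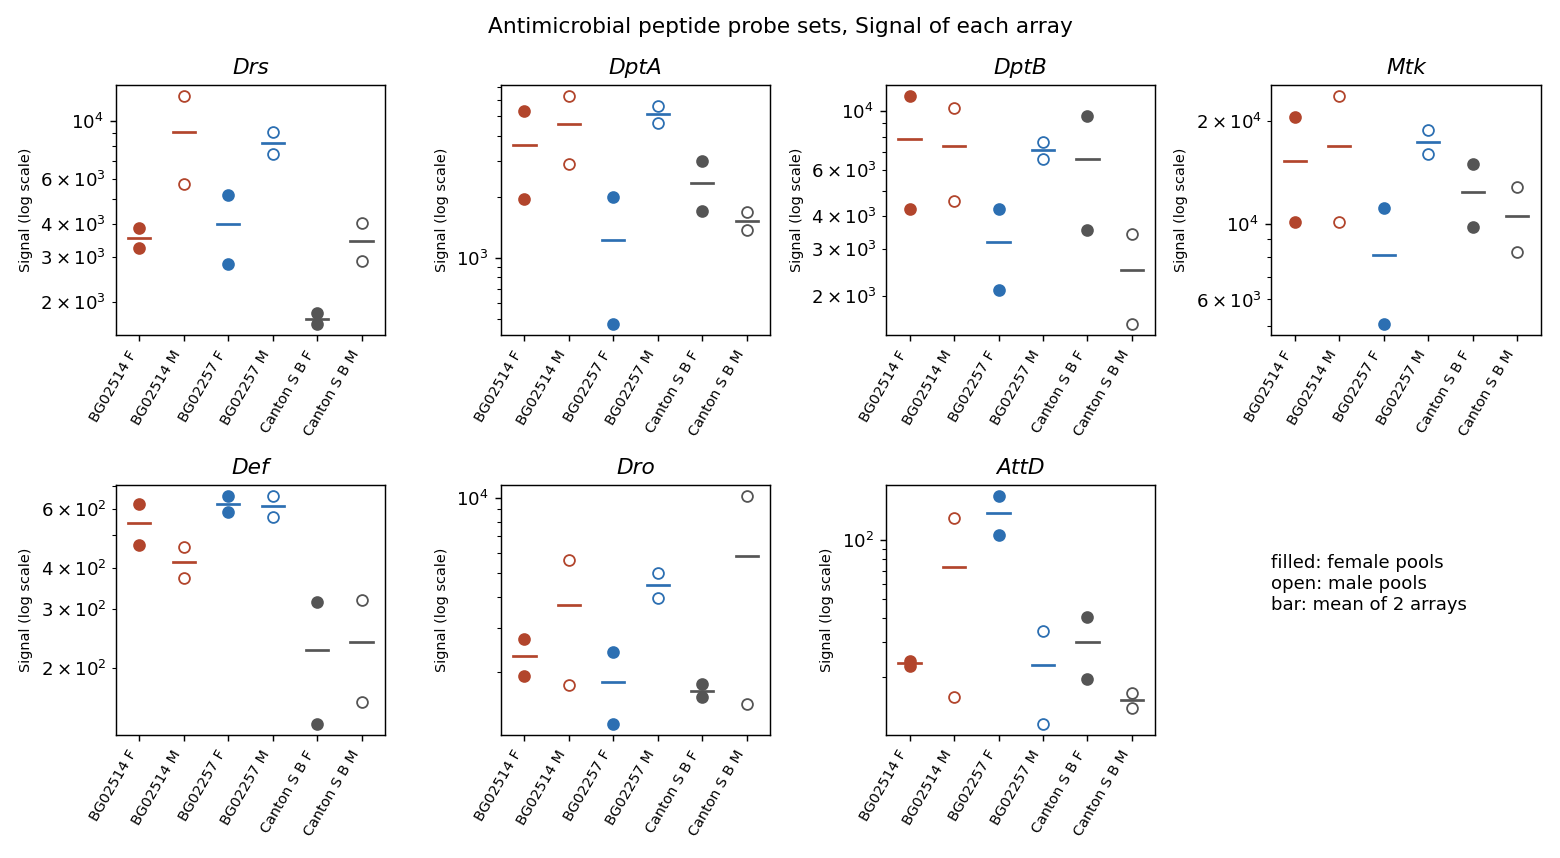
Signal (log scale) of each antimicrobial peptide probe set on each of the 12 arrays, by line and sex (F, female, filled; M, male, open), with bars at the mean of 2 arrays. For Drs both male arrays lie above both female arrays in each line, and for Def every array of BG02514 and BG02257 lies above every Canton S B array. The Def separation was not counted over all probe sets.

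Mtk, the other antifungal peptide gene, was bright on every array and had no sex difference that passed the test. In females its Signal was 20529.0 and 10110.0 in BG02514, 11159 and 5082 in BG02257, and 9812 and 14949 in Canton S B. In males it was 23645 and 10105.0 in BG02514, 15985 and 18834 in BG02257, and 12783 and 8284 in Canton S B. The sexes overlapped in BG02514 and Canton S B, and only in BG02257 were both male arrays above both female arrays. The averaged female-minus-male difference was -0.36 ± 0.27, with an adjusted p of 0.593 (limma).

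The diptericin genes gave different values in each line, and neither passed the test of sex. DptA had 5285 and 1959 in BG02514 females, against 6281 and 2917 in BG02514 males. In BG02257 it had 1987.5 and 471 in females, against 5631 and 4637 in males. In Canton S B it had 1694 and 3008 in females, against 1366 and 1676 in males. The BG02257 sexes were apart with males higher, the Canton S B sexes were apart with females higher, and the BG02514 sexes overlapped. With so few arrays, such orders within a line can readily arise from the spread between arrays. The female-minus-male difference in log2 Signal was -0.41 ± 0.63 in BG02514, -2.40 ± 0.63 in BG02257 and 0.58 ± 0.63 in Canton S B. The BG02257 value, a male Signal 5.28 times the female one, had an unadjusted p of 0.00291 and an adjusted p of 0.295 (limma), and it moved with single arrays. It was -1.36 without BG02257 female 2, -3.44 without BG02257 female 1, and -2.26 without BG02257 male 1a, and passed the test in none of these fits.

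DptB, the neighbour of DptA, followed the same order of lines. It had 11399 and 4275 in BG02514 females, against 10258 and 4561 in BG02514 males. In BG02257 it had 4269 and 2109 in females, against 7640.4 and 6595 in males. In Canton S B it had 3552 and 9631 in females, against 1560.5 and 3437 in males. The Canton S B females were both above the Canton S B males, the BG02257 females both below the BG02257 males, and the BG02514 sexes overlapped. The differences were 0.03 ± 0.61 in BG02514, -1.24 ± 0.61 in BG02257 and 1.34 ± 0.61 in Canton S B, and averaged over lines 0.04 ± 0.35, with an adjusted p of 0.976 (limma). Leaving out 1 array moved the Canton S B value, from 0.62 without Canton S B female 2 to 2.06 without Canton S B female 1 (0.77 without male 1 and 1.91 without male 2). It moved the BG02257 value from -1.75 without BG02257 female 1 to -0.73 without BG02257 female 2, and in BG02514 the sign changed with the array left out.

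Whether the sex difference depended on the line was asked with an interaction test. No probe set of the 8380 passed it (0.0%, limma, with 235 at an unadjusted p under 0.05), so none of the 6 genes did. The lowest unadjusted values among them belonged to the diptericins, with 0.0193 for DptA and 0.0368 for DptB, followed by 0.122 for Mtk, and all 6 had an adjusted p of 1.0 (limma). Within single lines, 0 of the 6 genes passed the sex test (limma), against 10 probe sets in BG02514 (0.119%), 12 in BG02257 (0.143%) and 34 in Canton S B (0.406%). Of the 6 genes, 1 had an unadjusted p under 0.05 in BG02514 (Drs), 3 did in BG02257 (Drs, DptA and Mtk) and 2 did in Canton S B (Drs and DptB), where 633, 714 and 651 of the 8380 probe sets did in BG02514, BG02257 and Canton S B.

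Dro rested on single arrays. It had 2707 and 1932 in BG02514 females, against 5638 and 1775 in BG02514 males. In BG02257 it had 2422 and 1243 in females, against 3955 and 5015 in males. In Canton S B it had 1588.5 and 1792.5 in females, against 10159.9 and 1495 in males. Canton S B male 1 was the highest array of all 12 and its partner, Canton S B male 2, was below both Canton S B females, so the 2 pools of that group differed 6.80-fold. Averaged over lines, the female-minus-male difference was -1.01 ± 0.43, with an adjusted p of 0.291 (limma). Without Canton S B male 2 it was -1.47 and passed the test, with an adjusted p of 0.0296, and without Canton S B male 1 it was -0.55, with an adjusted p of 0.394 (limma).

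Def showed no sex difference that passed the test. Its Signal was 619 and 466 in BG02514 females, against 461 and 372 in BG02514 males. In BG02257 it had 586 and 655 in females, against 655 and 566 in males. In Canton S B it had 136 and 316 in females, against 158 and 319.9 in males. The sexes overlapped in BG02257 and Canton S B, both BG02514 females were above both BG02514 males, and the averaged difference was 0.09 ± 0.23, with an adjusted p of 0.896 (limma). By line, the lowest array of either insertion line, at 372, was above the highest Canton S B array, at 319.9. How many of all tested probe sets separate in this way was not counted. Canton S B female 1 and male 1, at 136 and 158, were close to the filter, a mean Signal of 128.

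AttD stayed below the filter, a mean Signal of 128 over the 12 arrays, and is given as values only. It read 24.1 and 22.8 in BG02514 females, against 130.5 and 15.8 in BG02514 males. It read 168.6 and 106.5 in BG02257 females, against 34.5 and 11.5 in BG02257 males, and 40.5 and 19.6 in Canton S B females, against 16.6 and 13.9 in Canton S B males. Only BG02514 male 1 and the BG02257 females were above 100, and the 2 pools of BG02514 males differed 8.26-fold.

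The line comparisons ask how heads of each insertion line differ from those of the wild type. In BG02514, all 6 tested genes had a log2 difference above 0 against Canton S B, with a median of 0.96. Of all tested probe sets 47.4% were above 0, with a median of -0.01. The Dro difference (0.07 ± 0.52) changed sign in some alternative fits. The genes tended to vary together within groups (median r of 0.69), so the 6 signs are not independent. None of the 6 passed the test (limma), against 15 of 8380 probe sets (0.179%), while 3 of the 6 had an unadjusted p under 0.05 (Drs, Def and DptA), as 672 probe sets did. Drs had a Signal of 3861, 3239, 12469.7 and 5732 in BG02514, against 1650.5, 1813, 2890.4 and 4040.0 in Canton S B, a log2 difference of 1.17 ± 0.25 with an unadjusted p of 0.000702 and an adjusted p of 0.14 (limma). In each sex both BG02514 arrays were above both Canton S B arrays for Drs and for Def, 2 of the 6 genes, as for 357 of all tested probe sets (4.26%). Def averaged 479 ± 103 in BG02514, against 233 ± 98.8 in Canton S B (SD, n = 4 each), a difference of 1.13 ± 0.28 on the log2 scale with an adjusted p of 0.199 (limma).

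The other 4 genes had overlapping lines in at least 1 sex. The BG02514-minus-Canton S B difference was 1.01 ± 0.45 for DptA, 0.91 ± 0.43 for DptB, 0.42 ± 0.33 for Mtk and 0.07 ± 0.52 for Dro, with adjusted p between 0.604 and 0.987 (limma). Summed gut enzyme genes, 17 named of 19 and 9 tested, ran from 4932 to 8722 in BG02514 and from 1622 to 7793 in Canton S B, and summed hemocyte genes from 9370 to 12528 in BG02514 and from 5906 to 16483 in Canton S B. The part of gut or blood cells in these differences was not tested.

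BG02257 was set against the same 4 Canton S B arrays, so its differences share them with those of BG02514. Here too all 6 differences were above 0, with a median of 0.30. Of all tested probe sets 47.9% were above 0, with a median of -0.01. The differences of Mtk (0.03 ± 0.33) and Dro (0.12 ± 0.52) were smaller than their SE. Those of DptA, DptB, Mtk and Dro changed sign in some alternative fits, and the 6 signs are again not independent. None of the 6 passed the test (limma), against 8 probe sets (0.0955%), while 2 of the 6 (Drs and Def) had an unadjusted p under 0.05, as 336 probe sets did. Def averaged 616 ± 46.1 in BG02257, against 233 ± 98.8 in Canton S B (SD, n = 4 each). On the log2 scale the difference was 1.51 ± 0.28, a fitted fold of 2.84, with an unadjusted p of 0.000226 and an adjusted p of 0.105 (limma). Without Canton S B female 2 this difference was 1.81 and passed the test, with an adjusted p of 0.0225, and without BG02257 male 1a it was 1.45, with an adjusted p of 0.271 (limma). With both BG02257 male arrays as 1 sample the adjusted p was 0.317 for Def.

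Drs in BG02257 had 5198, 2802, 7450.2 and 9078, against 1650.5, 1813, 2890.4 and 4040.0 in Canton S B. The difference was 1.20 ± 0.25, with an unadjusted p of 0.00056 and an adjusted p of 0.192 (limma), and 1.28 without BG02257 male 1a. In each sex both BG02257 arrays were above both Canton S B arrays for Drs and Def, 2 of the 6 genes, as for 188 of all tested probe sets (2.24%). The other 4 genes had differences of 0.27 ± 0.45 (DptA), 0.33 ± 0.43 (DptB), 0.03 ± 0.33 (Mtk) and 0.12 ± 0.52 (Dro), each with an adjusted p of 0.999 (limma).

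Between the insertion lines none of the 6 genes passed the test (limma) and none had an unadjusted p under 0.05, against 28 probe sets that passed (0.334%) and 837 with an unadjusted p under 0.05. The BG02514-minus-BG02257 differences in log2 Signal were 0.74 ± 0.45 for DptA, 0.58 ± 0.43 for DptB, 0.38 ± 0.33 for Mtk, -0.03 ± 0.25 for Drs, -0.05 ± 0.52 for Dro and -0.38 ± 0.28 for Def. Their median was 0.17, against -0.01 over all tested probe sets.

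**Figure D2:**
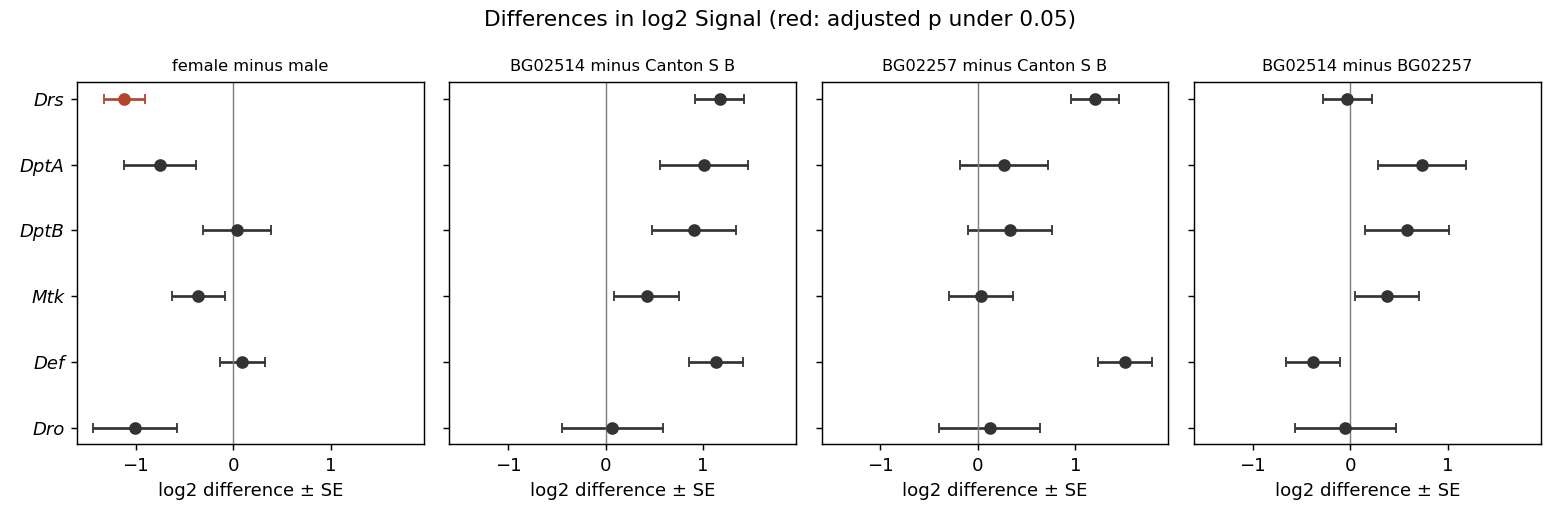
Log2 difference in Signal with its standard error for the 6 tested antimicrobial peptide genes in 4 comparisons, from the limma model over 12 arrays (red, adjusted p under 0.05). Drs in females against males, at -1.12, is the only red point, and Drs and Def lie above 1 in both comparisons with Canton S B.

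Replicate arrays differed more for these genes than for most others. The residual SD of log2 Signal between arrays of a group was 0.989 for Dro, 0.839 for DptA, 0.807 for DptB, 0.623 for Mtk, 0.486 for Def and 0.452 for Drs, against a median of 0.276 over all tested probe sets. These values lie between the 83.1 percentile (Drs) and the 98.2 percentile (Dro) of all tested probe sets. Within a group, the brighter pool had 4.22 times the DptA Signal of the other in BG02257 females and 2.71 times the DptB Signal in Canton S B females. Across the 6 groups the median probe set differed 1.15-fold to 1.25-fold between arrays. The BG02257 males were the closest pair for DptA, DptB and Mtk and differed 1.16-fold to 1.27-fold over the 6 genes, although 1a stood apart in the neuronal genes and Yp1.

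**Figure D3:**
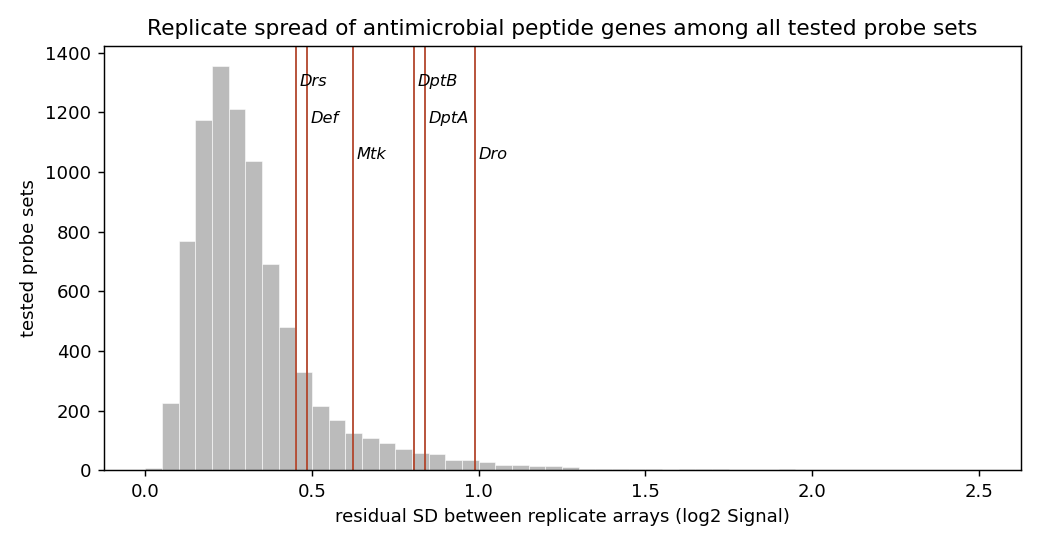
Number of tested probe sets by residual SD of log2 Signal between replicate arrays, with lines at the 6 antimicrobial peptide genes. All 6 lie right of the median of 0.276, from Drs at 0.452 to Dro at 0.989, and 5 probe sets above 2.5 are not drawn.

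The genes tended to be high or low on the same arrays. BG02514 male 1 was the highest array for Drs, DptA and Mtk and among the 3 highest for 5 of the 6 genes. BG02257 female 2 was the lowest array for DptA, Mtk and Dro and among the 3 lowest for 5 of the 6, yet it was the array with the next-to-highest Def. Canton S B female 1 was lowest for Drs and Def. Canton S B male 1 was highest for Dro and lowest for DptB, so the peptide genes did not all move as a block.

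**Figure D4:**
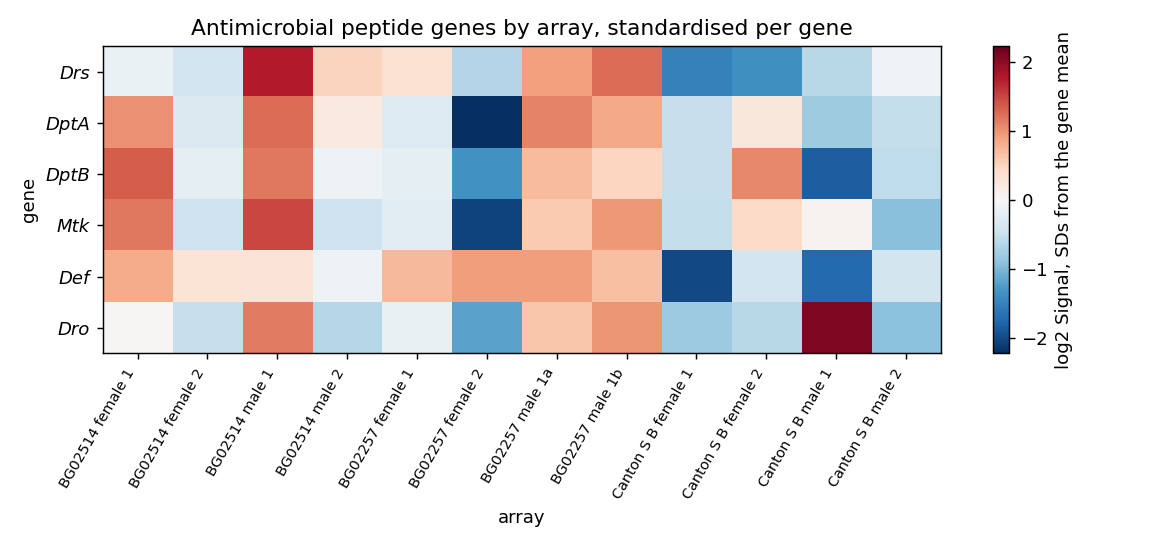
Log2 Signal of the 6 tested antimicrobial peptide genes (rows) on 12 arrays (columns), in SDs from each gene's own mean, with red above and blue below it. BG02514 male 1 is red for 5 genes and near the mean for Def, BG02257 female 2 is blue for 5 genes and red for Def, and Canton S B male 1 is dark red for Dro.

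Over the 12 arrays the 15 pairs of genes had a median Pearson r of 0.48, from -0.10 for Def and Dro to 0.92 for DptA and Mtk. After the 6 group means were subtracted the median was 0.69, with 14 of 15 pairs above 0, from -0.37 for Def and Dro to 0.87 for DptA and Mtk. The neighbours DptA and DptB had an r of 0.86 in both forms, while DptB and Dro had 0.05 over the arrays and 0.07 after subtraction. These are descriptions over 12 arrays whose points share the array's hybridisation and scaling. After subtraction the 2 arrays of a group mirror each other, so there are only 6 independent points.

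The mean standardised level of the 6 genes was also set against marker lists of other cells. Over the 12 arrays r was 0.08 for hemocyte genes, -0.12 for gut enzymes, -0.14 for muscle, -0.26 for neurons, -0.29 for the eye, 0.16 for testis and accessory gland and 0.17 for ovary. For the fat body it was -0.44 with all listed genes and 0.00 for the 6-gene subset without yolk protein genes, in which Lsp2 varied most. After subtracting group means r was 0.44 for hemocyte genes, -0.47 for all listed fat body genes, -0.41 for gut enzymes, -0.30 for the eye, 0.20 for muscle, -0.08 for neurons, 0.24 for testis and accessory gland and -0.02 for ovary.

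Among 6774 other named genes, those whose arrays most resembled this mean level were CaBP1, a protein disulfide isomerase family member, at an r of 0.90, then CG4042 (0.89), Sps2 (0.87), Shc (0.82), cold (0.78), Dyrk2 (0.78), cnir (0.77), TM4SF (0.77), Bbd (0.77) and Ced-12 (0.77). Bbd, bombardier, is an immune-induced gene downstream of Toll. After subtracting group means the closest were Pxn, peroxidasin, an extracellular matrix peroxidase made by hemocytes and fat body, at 0.97, then Dbp21E2 (0.94), Cndp2 (0.93), Alg14 (0.93), CaBP1 (0.92), CG42326 (0.92), CG4098 (0.91), Shark (0.91), CG11200 (0.90) and CG6650 (0.90). CaBP1 was the 1 gene in both sets of 10. The points of these correlations share the same arrays.

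Other immune effectors were described from a list of 39 genes (bomanins, drosomycin-like peptides, cecropins, lysozymes and others), of which 21 were named and 16 tested. In BG02514, 14 of the 16 were above Canton S B with a median log2 difference of 0.29 and none passed the test. BomT2, a bomanin of the Toll response, differed by 0.54 ± 0.11 there (adjusted p = 0.131, limma) and Drsl5, a drosomycin-like gene, by -0.49 ± 0.10 (adjusted p = 0.122, limma), which is opposite in sign to Drs. In BG02257, 6 of the 16 were above Canton S B, with a median of -0.04 and none passing, and the 2 lowest p belonged to Drsl5, at -0.16 ± 0.10, and the bomanin BomS5, at 0.19 ± 0.12.

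Between the insertion lines 1 of the 16 effectors passed the test. BomT2 had a Signal of 9740 to 10700 in females and 11800 to 12200 in males of BG02514, against 5540 to 6170 in females and 8100 to 8320 in males of BG02257, with no overlap in either sex. The difference was 0.67 ± 0.11, with an adjusted p of 0.0352 (limma). The BomT2 difference was not refitted without BG02257 male 1a, and such a separation of the lines was not counted over all probe sets. Listericin, a JAK-STAT-dependent antibacterial gene, had 4410 to 5990 in BG02514, against 8120 to 13100 in BG02257, a difference of -1.08 ± 0.27 that did not pass (adjusted p = 0.198, limma). Of the 16 effectors, 14 were higher in BG02514, with a median of 0.32. In females against males none of the 16 passed, 7 were above 0 and the lowest p belonged to BomT2 at -0.32 ± 0.09 and BomS6, also a bomanin, at -0.20 ± 0.07 (adjusted p of 0.111 and 0.189, limma).

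Of 24 Toll pathway genes, 20 were named and 18 tested, and none passed in any of the 4 comparisons. In females against males 14 of 18 were above 0 with a median of 0.10, led by the serine protease genes psh at 0.32 ± 0.12 and grass at 0.45 ± 0.18. In BG02514 against Canton S B 7 of 18 were above 0 with a median of -0.08, and the lowest p belonged to spz, the Toll ligand, at -0.50 ± 0.16 and grass at -0.60 ± 0.22. In BG02257 7 of 18 were above 0 with a median of -0.03, and the lowest p belonged to the kinase gene Gprk2 at -0.37 ± 0.20 and psh at 0.22 ± 0.15. Between the insertion lines 8 of 18 were above 0 with a median of -0.04, with grass at -0.84 ± 0.22 and GNBP3, a recognition protein for fungal glucan, at 0.51 ± 0.17. Adjusted p of the genes named ran from 0.202 to 0.999 (limma).

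Of 27 Imd pathway genes, 23 were named and 15 tested, and 1 passed in 1 comparison. PGRP-LE, a peptidoglycan receptor of the pathway, had 579 to 677 in BG02514 females, against 402 to 450.0 in BG02514 males. In BG02257 it had 720.0 to 879 in females, against 424 to 545 in males, and in Canton S B 468 to 487 in females, against 342 to 399 in males. Both female arrays were above both male arrays in each line, and the averaged difference was 0.55 ± 0.12, with an adjusted p of 0.0358 (limma). The direction is opposite to Drs. Among all tested probe sets 238 passed the test of sex (2.84%), 164 of them higher in females. Complete separation with females higher in each line was not counted over all probe sets. The PGRP-LE difference was not refitted without BG02257 male 1a. The list as a whole had 7 of 15 genes above 0 and a median of -0.02, and ben, a ubiquitin-conjugating enzyme gene, had the next lowest p at 0.18 ± 0.10.

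In the line comparisons no Imd pathway gene passed. PGRP-SB1, a secreted peptidoglycan-degrading enzyme that is itself induced by Imd, had 3450.0 to 5450.0 in BG02514, against 1230.0 to 4130.0 in Canton S B, a difference of 0.94 ± 0.32 (adjusted p = 0.42, limma). Against BG02257, where it had 1050.0 to 2880.0, the BG02514 difference was 1.13 ± 0.32 (adjusted p = 0.249, limma). The caspase gene Dredd differed by -0.77 ± 0.27 in BG02514 against Canton S B. In BG02257 against Canton S B the lowest p belonged to PGRP-LE at 0.56 ± 0.15 and PGRP-LA at 0.47 ± 0.16, and PGRP-LA differed by -0.59 ± 0.16 between BG02514 and BG02257. The list had 8 of 15 genes above 0 in both comparisons with Canton S B, with medians of 0.00 in BG02514 and 0.01 in BG02257, and 4 of 15 between the insertion lines with a median of -0.14.

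Neither of 2 further lists had a gene that passed in any of the 4 comparisons. Of 20 JAK-STAT and stress genes 9 were named and 6 tested. The lowest p in them belonged to Tep4, a thioester-containing protein gene, at -0.61 ± 0.12 between BG02514 and BG02257 (adjusted p = 0.0644, limma), with 2370 to 2700 in BG02514, against 3410 to 4280 in BG02257, and at -0.50 ± 0.12 for BG02514 against Canton S B (adjusted p = 0.176, limma). The list medians were -0.03 for sex, -0.10 for BG02514 and 0.06 for BG02257 against Canton S B, and -0.12 between the insertion lines. The other genes with the lowest p were Ptp61F, TotE and Tep3, with adjusted p from 0.434 to 0.999 (limma).

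Of 14 melanization genes 13 were named and 11 tested. In females against males 8 of 11 were above 0 with a median of 0.24, where the serpin gene Spn28Dc had 0.50 ± 0.16 and yellow-f2, a dopachrome-conversion enzyme gene, -0.37 ± 0.12, with adjusted p of 0.149 and 0.144 (limma). In BG02514 against Canton S B 2 of 11 were above 0, with a median of -0.08. Spn27A, the serpin that restrains melanization, had -0.39 ± 0.18 there, and yellow-f2 had 0.26 ± 0.14. In BG02257 against Canton S B 5 of 11 were above 0, with a median of -0.05, and the lowest p belonged to the protease gene Hayan at -0.34 ± 0.23 and Ddc, dopa decarboxylase, at -0.17 ± 0.14. Between the insertion lines 5 of 11 were above 0, and yellow-f2 had 0.32 ± 0.14 and Spn27A -0.33 ± 0.18.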

How the data were processed

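Per the labels, the deposited intensities are the Signal of Affymetrix Microarray Suite 5.0, computed by the authors and left on a linear scale. The submitters' processing notes also name GCOS, with no version in the sources used here. The deposited arrays already shared a trimmed mean (500.1, 2% off each tail), so each was only rescaled to it and log2 taken with no pseudocount. Of 14010 probe sets 44 controls were left out, and the 8380 at or above the 40th percentile of mean Signal (128) entered the tests. limma 3.58.1 in R 4.3.3 was fitted to all 12 arrays with 6 group means (eBayes with a variance trend, residual df 6, prior df 5.09), two-sided, with Benjamini-Hochberg adjustment over 8380 probe sets at 0.05. The number of arrays limits the precision.

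The genes, lists and naming rule were chosen with earlier results of these data known. All listed peptide genes are named. Of each other list the text names every gene that passed the test and the 2 tested genes with the lowest p in each of 4 comparisons, and of similar genes the 10 with the highest r. A gene with several probe sets stands by its brightest. Names come from the platform annotation, updated through RefSeq (12393 of 12442 single symbols matched). Alternatives were the filter, scaling, pseudocount, variance trend, lines fitted, replicate block, averaging of the BG02257 male arrays, the two-way model of the series' design text on linear Signal, and leaving out each array.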

Additional observations from a re-analysis of the deposited data

Results flagged for a closer look

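In Canton S B, the Dro Signal of male 1 was 10159.9, against 1495 for male 2 and 1588.5 and 1792.5 for the Canton S B females. On the log2 scale, its gap to the nearest of the other 3 arrays was 0.905 of the whole range, above Dixon's 95% critical value for 4 arrays. This was the only such array in 35 tests of the antimicrobial peptide genes over lines and sexes, and chance gives about 1 in 20. On the same array Drs (2890.4), Mtk (12783) and AttD (16.6) lay within the range of other Canton S B arrays, and DptB (1560.5) was the lowest of the 12 arrays.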

How the results depend on the processing

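Drs in females against males kept its sign in every alternative run, with the call lost in the 3 fits named with it. Dro and Def each gained a call without 1 Canton S B array. Of all alternative values for single peptide genes, 991 kept direction and side of the threshold and 48 changed sign, all of them for differences that had not passed; the cause was not tested.

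Over all tested probe sets, same-numbered arrays did not deviate together (10 pairs, r from -0.236 to 0.269), so the numbers were not taken as pairs. For the 6 peptide genes, the mean standardised level after subtracting group means was high on some replicate 1 arrays. It was 0.79 in BG02514 females, 1.08 in BG02514 males and 0.92 in BG02257 females. In Canton S B it was -0.76 in females and -0.13 in males. Whether the replicate number stands for a batch was not tested. With the replicate block the log2 difference was -0.14 for Def by sex in BG02257, -0.14 for Mtk and -0.17 for Dro in BG02257 minus Canton S B, and 0.05 for Drs and 0.24 for Dro in BG02514 minus BG02257. The block left 172 probe sets called by sex, 13 by sex in Canton S B, 7 by sex in BG02257, 2 for BG02257 minus Canton S B and 16 for BG02514 minus BG02257. In the two-way model on linear Signal Dro had -0.32 for BG02514 minus Canton S B and -0.25 for BG02257 minus Canton S B, and Drs 0.04 in BG02514 minus BG02257. That model called 103 probe sets and 0 peptide genes by sex, 13 by sex in Canton S B, 7 in BG02257, 3 for BG02514 and 1 for BG02257 minus Canton S B, and 3 between the insertion lines. Without a variance trend the counts were 99 and 0 peptide genes by sex, 13 by sex in Canton S B, 5 for BG02514 and 1 for BG02257 minus Canton S B, and 9 between the insertion lines. No filter left 145 by sex and 14 in Canton S B, and quantile normalization 17 in Canton S B. Fits of only the lines compared gave, by sex, 32 in BG02514, 6 in BG02257 and 8 in Canton S B, and 1 for BG02257 minus Canton S B. Averaging the BG02257 male arrays gave 3 for BG02257 minus Canton S B and 11 between the insertion lines.

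Leaving out 1 array moved the calls by sex from 116 (without BG02514 female 2) to 299 (without BG02257 male 1b), with 0 to 2 peptide genes. By sex within a line they ran from 4 to 10 in BG02514, 3 to 166 in BG02257 and 7 to 38 in Canton S B. For BG02514 minus Canton S B they ran from 4 to 20, for BG02257 minus Canton S B from 2 to 24 with 0 to 1 peptide genes, for BG02514 minus BG02257 from 2 to 90, and for the interaction from 0 to 9. The highest counts by sex in BG02257, for BG02257 minus Canton S B, between the insertion lines and for the interaction came without BG02257 male 1b. The lowest were shared: by sex in BG02514 and for BG02514 minus Canton S B by the fits without BG02514 female 2 and without BG02514 male 1, and between the insertion lines by those without BG02514 female 2, BG02514 male 2 and BG02257 female 1. The female-minus-male difference ran from -0.20 to 0.28 for DptB and -0.11 to 0.30 for Def. Within Canton S B it ran from -0.08 to 0.55 for Mtk, -0.72 to 0.49 for Def and -2.59 to 0.17 for Dro. Within BG02514 it ran from -1.13 to 0.30 for DptA, -0.68 to 0.74 for DptB, -0.71 to 0.51 for Mtk and -1.30 to 0.37 for Dro, and within BG02257 from -0.08 to 0.13 for Def. Against Canton S B, Dro ran from -0.62 to 0.76 in BG02514, and in BG02257 DptA from -0.25 to 0.79, DptB from -0.03 to 0.69, Mtk from -0.25 to 0.32 and Dro from -0.57 to 0.81. Between the insertion lines Drs ran from -0.32 to 0.25 and Dro from -0.46 to 0.37.

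With 2 pools a group, differences of the size seen between replicate pools of Dro, DptA and DptB could not be told from that spread. Fits without an array leave a group with 1 array, which is assumed to vary like the others. Over all alternative fits, the largest median difference of all probe sets, in either direction, was 0.05 on the log2 scale.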

Other observations

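CecB, a cecropin gene next in line to CecA1 and CecA2 in the gene order, stayed below the filter on dim probe sets and was singled out after its values were seen. It read 125.8 on BG02514 female 1 and 127.6 on BG02514 male 1, against 15.2 and 46.9 on the partner arrays of the same groups. The other 8 arrays lay between 13.3 and 63.5. The arrays with the highest CecB were also those with the highest Mtk.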
